A study of Mus musculus with 10 samples.

Results

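The enteric neuron and glia genes examined here are 29 genes chosen by symbol for their known place in the gut's own nervous system: 6 neuropeptide precursors, 4 enzymes of transmitter synthesis, 13 pan-neuronal genes, 3 regulators of neural crest and neuronal fate, and 3 glial genes. These genes were chosen with earlier results of these data known, so their counts beside all genes are descriptive and no independent test. They were followed in the ileum of mice, in 5 samples of wild type (WT) and 5 of a knockout of interferon-gamma (IFNg). The mice were all C57Bl/6 males of 8 weeks, fed chow and housed free of specific pathogens. The genotype is labelled IFNgKO, with no further description of the allele. The labels name an array set 1, with 2 samples per genotype, and an array set 2, with 3 per genotype. They do not say outright that every sample came from its own mouse, and the p-values cover only sample-to-sample spread, which may be technical.

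The enteric nervous system is a network of neurons and glia in the gut wall, with ganglia between the muscle layers and in the submucosa. Its neurons signal with acetylcholine, nitric oxide and peptides to drive and relax muscle, to set secretion and to steer blood flow. Neurons and glia descend from neural crest cells that colonise the gut under the control of RET signalling. RNA of whole ileum mixes these few cells with epithelium, muscle and immune cells, so fewer neurons and less RNA per neuron cannot be told apart.

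Platform symbols matched 27 of the 29 members, through 35 probes, and Penk and Sox10 had no matching symbol. A probe counted as measured if its detection p (the share of negative controls as bright as the probe) was under 0.05 on 5 or more arrays. By this rule 15 members were measured, of 8685 measured genes in all. They were 5 neuropeptide genes (Npy, Vip, Tac1, Cartpt, Gal), 2 enzymes (Nos1, Chat), 6 pan-neuronal genes (Uchl1, Stmn2, Syt1, Prph, Ncam1, Calb2) and 2 regulators (Ret, Phox2a). A gene with several measured probes is given by its brightest one. Levels are log2 intensities after background correction and quantile normalisation, and differences are log2 knockout minus WT with their standard error (SE). A level is compared only with levels of the same probe.

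Neuronal members were detected only in part, with 6 of 13 pan-neuronal members measured, and the label could not be checked for glia. The 9 members Npy, Vip, Tac1, Cartpt, Gal, Uchl1, Stmn2, Calb2 and Ret were detected on all 10 arrays. Of the 3 glial members, Sox10 was not matched, and S100b and Gfap, the calcium-binding and filament proteins that mark glia, were detected on 0 arrays, with lowest detection p-values of 0.187 and 0.0802. The other members with a probe but no detected array were the noradrenergic enzymes Th and Dbh, the RNA-binding protein gene Elavl4 (3 probes), the tubulin gene Tubb3, the growth-cone gene Gap43, the SNARE gene Snap25, the neurofilament gene Nefl and the transcription factor gene Hand2. Elavl3, another RNA-binding protein gene of neurons, was detected on 3 arrays, and Nefm, a neurofilament gene, on 1. None of these 12 members entered the main tests, and nothing about genotype can be read from them at this signal.

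Across the whole array, 10618 to 12975 probes were detected per sample and the median raw intensity lay between 93 and 112. Ileum_WT_641 stood apart, with 10618 detected probes, a mean correlation of 0.949 to the other arrays, the lowest of the 10, and an array weight of 0.28. Array set 1 values that moved by over 1.5 times without it are given both ways for the genes with values in every sample. The 2 probes of Ifng itself were detected on 0 arrays of either genotype, so they do not check the labels.

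Promoter sequences are shown for 5 members that the results below turn on: Vip and Gal, which differed together between the array sets, Cartpt, which differed the other way, and Npy and Uchl1, which had the lowest p-values for genotype. Each is the 250 bases before the start of the gene, 5′ to 3′ on the strand of the gene, from RefSeq on GRCm38.p6. The places are chr10:5638968-5639217 (plus strand) for Vip, chr19:3414545-3414794 (minus strand) for Gal, chr13:99900684-99900933 (minus strand) for Cartpt, chr6:49822460-49822709 (plus strand) for Npy and chr5:66675871-66676120 (plus strand) for Uchl1. Capitals mark the short core CGTCA of the cyclic AMP response element, which reads TGACG on the opposite strand and whose full form TGACGTCA holds 2 overlapping cores; both strands were searched.
Vip: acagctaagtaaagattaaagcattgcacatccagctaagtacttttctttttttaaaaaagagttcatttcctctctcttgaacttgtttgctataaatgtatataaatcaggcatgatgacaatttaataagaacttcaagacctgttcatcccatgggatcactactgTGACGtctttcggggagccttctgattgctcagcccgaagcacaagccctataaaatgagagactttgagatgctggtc
Gal: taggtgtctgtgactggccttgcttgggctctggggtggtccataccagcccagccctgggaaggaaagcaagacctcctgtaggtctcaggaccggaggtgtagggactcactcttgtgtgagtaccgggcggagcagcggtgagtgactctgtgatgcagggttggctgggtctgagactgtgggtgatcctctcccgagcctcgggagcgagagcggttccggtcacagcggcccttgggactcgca
Cartpt: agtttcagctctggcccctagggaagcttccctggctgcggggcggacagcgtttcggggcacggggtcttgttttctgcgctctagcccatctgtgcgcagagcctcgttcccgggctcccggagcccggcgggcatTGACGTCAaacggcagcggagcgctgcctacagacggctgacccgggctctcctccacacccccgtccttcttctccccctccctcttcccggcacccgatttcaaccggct
Npy: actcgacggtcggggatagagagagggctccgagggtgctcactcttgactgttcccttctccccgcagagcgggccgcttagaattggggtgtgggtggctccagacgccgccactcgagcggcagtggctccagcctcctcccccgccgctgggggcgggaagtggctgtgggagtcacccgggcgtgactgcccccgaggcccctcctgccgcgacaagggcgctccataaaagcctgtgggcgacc
Uchl1: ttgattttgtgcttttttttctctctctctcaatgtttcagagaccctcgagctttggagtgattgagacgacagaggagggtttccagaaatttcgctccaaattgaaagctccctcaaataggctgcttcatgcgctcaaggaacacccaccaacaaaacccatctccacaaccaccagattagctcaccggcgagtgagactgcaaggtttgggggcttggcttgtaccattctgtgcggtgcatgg

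Vip held 1 core, starting 79 bases before the gene, and Cartpt held the full site, starting 112 bases before it. Gal, Npy and Uchl1 had neither form in this window. Of the 11 measured members with a promoter in the RefSeq table, 5 (Vip, Tac1, Cartpt, Nos1 and Chat) had a core and 1 (Cartpt) had the full site. Among all 32851 promoters searched, 17.8% had a core and 1.55% the full site.

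The first comparison asked whether loss of IFNg changed neuronal gene expression in the ileum. No member passed 5% after adjustment over all 12039 measured probes (limma, array set fitted), where 0.0115% of measured genes did. Of the 15 measured members 10 had a difference below 0 and 5 above, with a median of -0.16 against -0.00116 for all measured genes, of which 50.2% lay below 0. At an unadjusted p under 0.05 there were 3 lower members (Npy, Uchl1, Ncam1) and 1 higher (Tac1), beside 6.67% of all genes lower, 5.63% higher and 12.3% in all. For 0 members did the 5 knockout samples lie wholly below or above the 5 WT samples, as they did for 0.679% and 0.829% of genes.

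**Figure D1:**
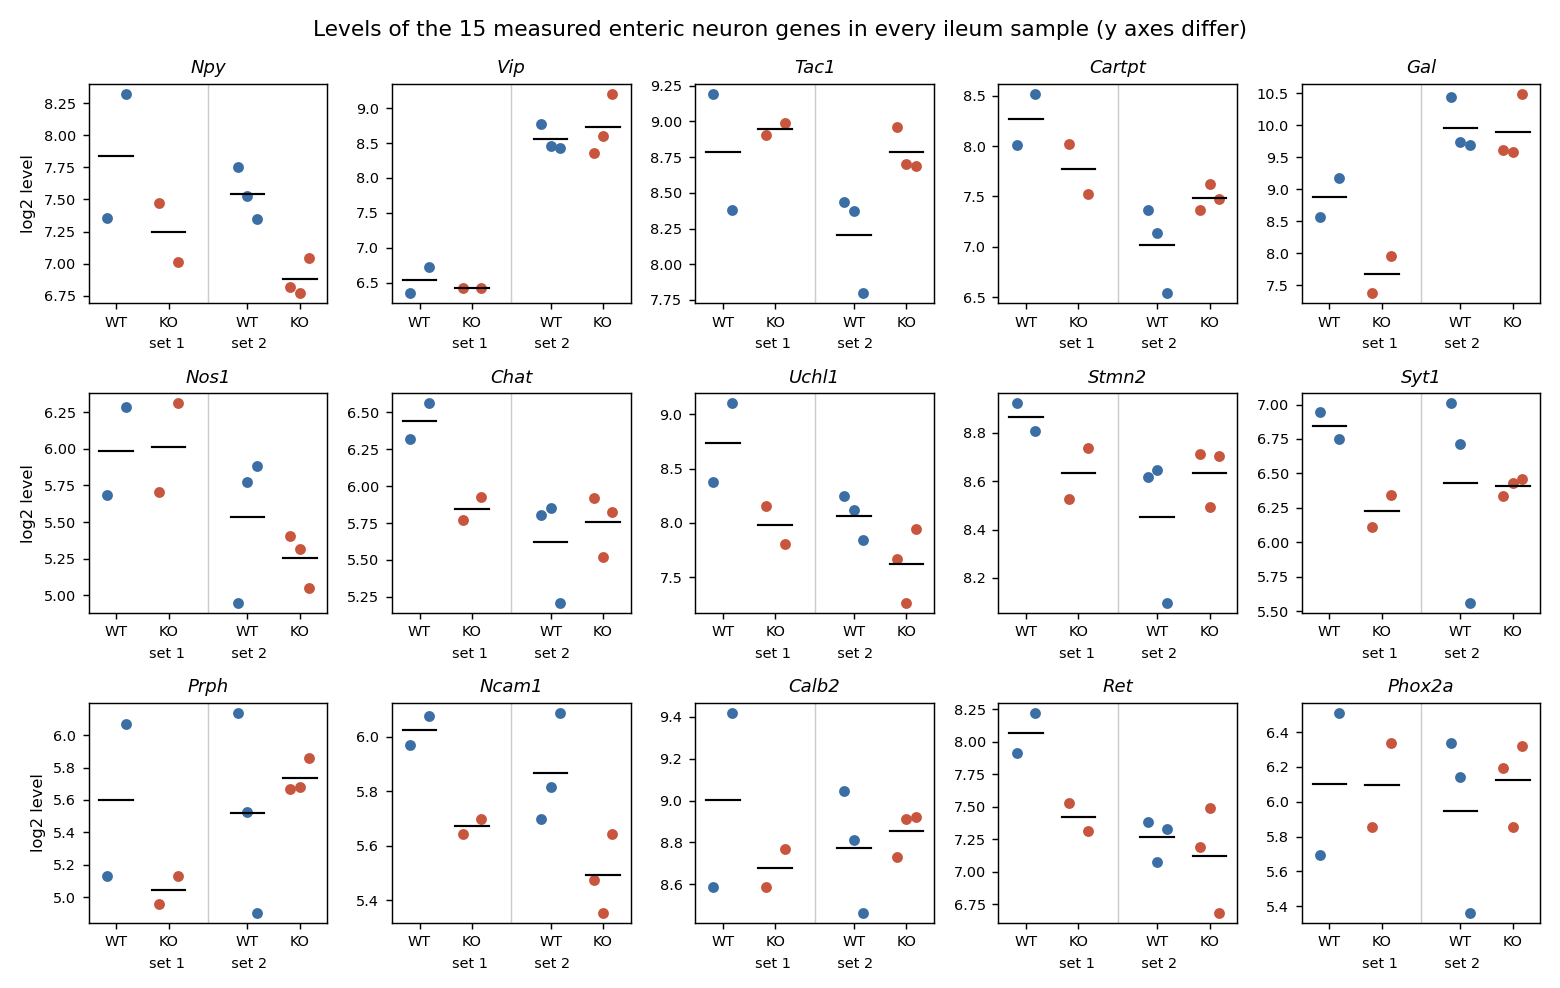
Log2 level of each measured member in every sample, by genotype (blue WT, red knockout) and array set, with a line at the mean of each group, 1 panel per gene and its own y axis. Vip and Gal separate the array sets, while Npy and Ncam1 lie lower in the knockout samples of array set 2.

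Among the neuropeptide genes, Npy encodes neuropeptide Y, a peptide of secretomotor and sympathetic neurons. In WT its log2 level was 7.36 in Ileum_WT_640 and 8.32 in Ileum_WT_641 in array set 1, and 7.75, 7.53 and 7.35 in Ileum_WT_642, Ileum_WT_643 and Ileum_WT_644 in array set 2. In the knockout it was 7.48 and 7.01 in Ileum_IFNgKO_645 and Ileum_IFNgKO_646, and 6.82, 6.77 and 7.04 in Ileum_IFNgKO_647, Ileum_IFNgKO_648 and Ileum_IFNgKO_649. All 3 knockout samples of array set 2 lay below the 3 WT samples, whereas the genotypes overlapped in array set 1, where the high value was Ileum_WT_641. The means were 7.66 ± 0.40 and 7.02 ± 0.28 (SD, n = 5 each), so the knockout minus WT difference was -0.64 ± 0.18 (SE; limma, adjusted p = 0.247). Within array set 1 it was -0.60 ± 0.30, with -0.11 without Ileum_WT_641, -1.08 without Ileum_WT_640 and -0.37 without Ileum_IFNgKO_646; within array set 2 it was -0.67 ± 0.24. Without Ileum_WT_641 the difference over both sets was -0.50. Its size ranged from -0.79 to -0.42 over 19 alternatives, with adjusted p-values of 0.125 to 0.633.

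Tac1 encodes the precursor of substance P and neurokinin A, the excitatory tachykinins, which enterochromaffin cells of the epithelium also make. Its WT levels were 9.20 and 8.38 in array set 1 and 8.44, 8.37 and 7.80 in array set 2. Its knockout levels were 8.90 and 8.99, then 8.96, 8.70 and 8.69. The highest and the lowest values were both WT samples, Ileum_WT_640 and Ileum_WT_644, and the 5 knockout samples lay close together. The difference was 0.41 ± 0.18 (SE, adjusted p = 0.394, limma), and array set 1 alone gave 0.16 ± 0.29. Array set 2 alone gave 0.58 ± 0.24, and there the 3 knockout samples lay above the 3 WT samples, with 0.38 without Ileum_WT_644. The array set 1 value rested on single samples, at -0.25 without Ileum_WT_641 and 0.57 without Ileum_WT_640.

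Gal encodes galanin, a peptide that modulates motility and secretion. Galanin mRNA in WT stood at 8.57 and 9.17 in array set 1 and 10.44, 9.74 and 9.69 in array set 2. Its knockout levels were 7.38 and 7.96 in array set 1 and 9.60, 9.58 and 10.49 in array set 2. The knockout samples lay below WT in array set 1 and overlapped with WT in array set 2. Over both sets Gal differed by -0.52 ± 0.27 (SE), and by -0.32 without Ileum_WT_641 or Ileum_IFNgKO_645. Array set 1 alone gave -1.20 ± 0.37 and array set 2 alone -0.06 ± 0.30, and the test of the change between sets gave an unadjusted p of 0.0325 and an adjusted p of 0.999 (limma).

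Cartpt encodes the CART peptide, found in enteric motor neurons and interneurons. Cartpt levels in WT were 8.01 and 8.52 in array set 1 and 7.36, 7.14 and 6.54 in array set 2, and its knockout levels were 8.02 and 7.53, then 7.36, 7.62 and 7.48. In array set 2 the 3 knockout samples lay above the 3 WT samples, the nearest pair being 7.361 and 7.363, while in array set 1 they overlapped. Array set 1 gave -0.49 ± 0.29 (SE) and array set 2 gave 0.47 ± 0.24, the change between sets having an unadjusted p of 0.0245 and an adjusted p of 0.999 (limma). Both values of Cartpt rested on single samples: array set 1 gave -0.24 without Ileum_WT_641 or Ileum_IFNgKO_646, -0.75 without Ileum_WT_640 and -0.74 without Ileum_IFNgKO_645, and array set 2 gave 0.24 without Ileum_WT_644. The second Cartpt probe gave -0.55 and 0.14 in the sets. Vip encodes vasoactive intestinal peptide, which relaxes muscle and drives secretion, and its genotype difference was 0.06 ± 0.17 (SE, adjusted p = 0.91, limma). Its second probe was detected on 0 arrays.

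Of the transmitter enzymes, Chat makes acetylcholine and Nos1 makes nitric oxide, the transmitter of inhibitory motor neurons. Chat levels in WT were 6.32 and 6.56 in array set 1 and 5.80, 5.85 and 5.21 in array set 2. In the knockout they were 5.77 and 5.92, then 5.92, 5.52 and 5.82. The knockout samples lay below WT in array set 1 and overlapped with it in array set 2. The difference was -0.16 ± 0.18 (SE, adjusted p = 0.749, limma), which was made up of -0.59 for array set 1 and 0.13 for array set 2, with an unadjusted p of 0.046 for the change between sets (adjusted p = 0.999). Without background subtraction Chat differed by -0.30 in array set 1, and the change between sets had an unadjusted p of 0.0999. Detection of Chat held on 4 WT and 5 knockout arrays, and its second probe was detected on 0 arrays. Nos1, detected on 4 WT and 3 knockout arrays, differed by -0.16 ± 0.21 (adjusted p = 0.783), with overlapping genotypes in both sets.

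Among the pan-neuronal genes, Uchl1 encodes the ubiquitin hydrolase PGP 9.5, a general marker of neurons. Uchl1 in WT stood at 8.38 and 9.10 in array set 1 and 8.24, 8.12 and 7.84 in array set 2. Its knockout levels were 8.15 and 7.81 in array set 1 and 7.67, 7.26 and 7.94 in array set 2. The highest value was again Ileum_WT_641, and Ileum_IFNgKO_649 lay above Ileum_WT_644, so the genotypes overlapped in array set 2 but not in array set 1. The means were 8.34 ± 0.47 and 7.77 ± 0.33 (SD, n = 5 each), a difference of -0.57 ± 0.18 (SE, adjusted p = 0.286, limma). Array set 1 gave -0.76 ± 0.29, array set 2 gave -0.44 ± 0.24, and both sets gave -0.43 without Ileum_WT_641. The array set 1 value was -0.40 without that sample, and the array set 2 value was -0.26 without Ileum_IFNgKO_648. Under median scaling the Uchl1 difference over both sets was -0.34 (unadjusted p = 0.107).

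Ncam1 encodes an adhesion molecule of neurons. Its probe was detected on 5 WT and 4 knockout arrays, at mean raw intensities of 128 and 118. Its WT levels were 5.97 and 6.08 in array set 1 and 5.70, 5.82 and 6.09 in array set 2, and its knockout levels were 5.64 and 5.70, then 5.48, 5.35 and 5.64. The knockout samples lay below WT within each array set, as they did for 2.29% of all genes, although the highest knockout sample (5.700, array set 1) just passed the lowest WT sample (5.698, array set 2). The difference was -0.37 ± 0.12 (SE, adjusted p = 0.305, limma), and was near the same size in the sets, -0.35 and -0.38. Without background subtraction the Ncam1 difference was -0.17 (unadjusted p = 0.0695), with -0.16 and -0.17 in the sets. The other Ncam1 probe, detected on 4 arrays and not tested, had a WT mean of 5.28 ± 0.17 and a knockout mean of 5.57 ± 0.19 (SD, n = 5 each), the opposite order.

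Calb2 encodes calretinin, a calcium-binding protein of a subset of enteric neurons. Its WT levels were 8.59 and 9.42 in array set 1 and 9.04, 8.81 and 8.46 in array set 2, and its knockout levels of 8.59, 8.77, 8.73, 8.91 and 8.92 lay inside that range. Its difference was -0.08 ± 0.18 (SE, adjusted p = 0.876, limma), and 0.14 under median scaling. The microtubule gene Stmn2 differed by 0.02 ± 0.15, Syt1, the calcium sensor of vesicle release, by -0.26 ± 0.24 and Prph, the filament gene of peripheral neurons, by -0.09 ± 0.24, with adjusted p-values of 0.978, 0.679 and 0.899. Prph was detected on 3 WT and 3 knockout arrays. Syt1 in Ileum_WT_644 was at 5.56, against 6.71 to 7.01 in the other WT samples. Without that sample the Syt1 difference over both sets was -0.53 (unadjusted p = 0.00202, adjusted p = 0.398), and over all samples left out in turn it ranged from -0.53 to -0.13. The Calb2 difference in array set 1 was -0.32, with 0.093 without Ileum_WT_641 and -0.74 without Ileum_WT_640.

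Of the regulators, Ret encodes the receptor for glial cell line-derived neurotrophic factor, which enteric neurons need to form and survive. Its WT levels were 7.91 and 8.22 in array set 1 and 7.39, 7.08 and 7.33 in array set 2. Its knockout levels were 7.53 and 7.32, then 7.19, 7.49 and 6.69. The knockout samples lay below WT in array set 1 only, with a difference of -0.64 ± 0.26 (SE) there and -0.14 ± 0.22 in array set 2. Over both sets the difference was -0.34 ± 0.17 (adjusted p = 0.439, limma), and the change between sets had an unadjusted p of 0.167. A second Ret probe was detected on 0 arrays. Phox2a, a transcription factor gene of autonomic neurons, differed by 0.10 ± 0.21 (adjusted p = 0.869).

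Taken by array set, 13 of the 15 measured members had a difference below 0 in array set 1, with a median of -0.49, against 53% of all genes below 0 and a median of -0.02. For array set 2, 7 of 15 lay below 0, with a median of 0.08, against 49.5% and 0.003. After adjustment 0 members passed 5% in array set 1 or in array set 2 (limma), as did 0% of all genes in each. At an unadjusted p under 0.05, 4 members were lower in array set 1 (Gal, Uchl1, Ret and Chat) and 0 higher, beside 4.04% and 3.42% of genes (7.46% in either direction). In array set 2, Npy and Ncam1 were lower and Tac1 higher, beside 2.79% and 3.45% (6.24% in either direction). The knockout samples lay wholly below WT for 7 members in array set 1, beside 19.7% of genes, and for 2 in array set 2, beside 6.51%. They lay wholly above WT for 0 members in array set 1, beside 15.1% of genes, and for 2 (Tac1 and Cartpt) in array set 2, beside 7.32%.

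The array set 1 comparison depended on single samples. Without Ileum_WT_641 its median was -0.25 and 0 members had an unadjusted p under 0.05, without Ileum_WT_640 these were -0.71 and 8, and without Ileum_IFNgKO_646 they were -0.38 and 1. For array set 2 the median was -0.11 without Ileum_WT_644, 0.22 without Ileum_WT_642 and 0.13 without Ileum_WT_643, and the 3 members with an unadjusted p under 0.05 became 1 without Ileum_IFNgKO_647 or Ileum_IFNgKO_648. Over both sets the median was -0.05 without Ileum_WT_641, -0.30 without Ileum_WT_644 and -0.07 without Ileum_IFNgKO_645. A test of the change in genotype difference between the sets passed 5% for 0 members and 0% of genes, and 3 members (Cartpt, Gal, Chat) had an unadjusted p under 0.05 in it, all 3 higher in array set 2, beside 1.38% of genes higher, 1.36% lower and 2.74% in all. Those 3 became 0 without Ileum_WT_644, 1 without Ileum_WT_641, Ileum_IFNgKO_645 or Ileum_IFNgKO_646, and 5 without Ileum_WT_640. The change was below 0 in 3 of 15 members, beside 46.4% of genes.

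**Figure D2:**
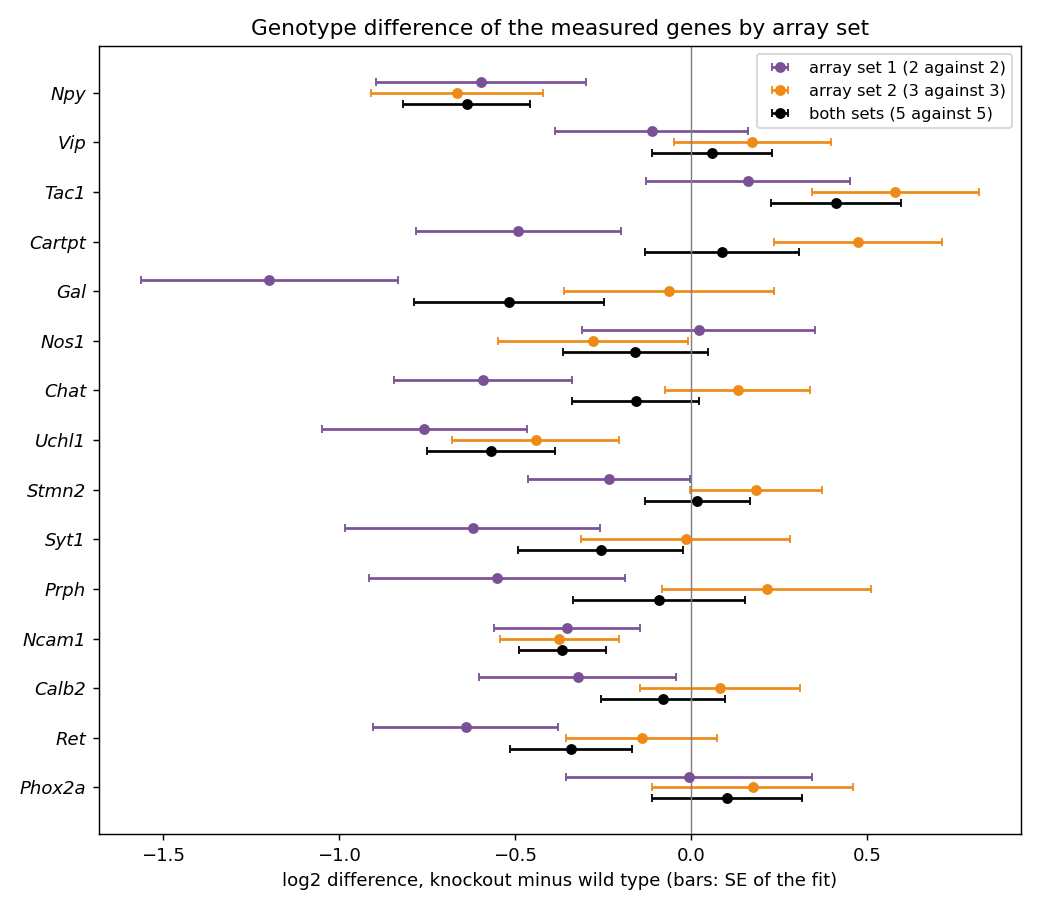
Log2 difference (knockout minus WT, x axis) of each measured member in array set 1 (purple), array set 2 (orange) and both sets (black), with bars of 1 SE. The array set 1 points of 13 of 15 members lie below 0, while those of array set 2 scatter on both sides.

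The second comparison was between the array sets themselves, with genotype fitted. It was added after the data were seen. Array set 2 differed from array set 1 past 5% in 4 of 15 measured members (limma), beside 18.4% of all genes. Unadjusted p-values under 0.05 belonged to 2 higher and 5 lower members, beside 15.7% and 18.8% of genes (34.5% in all), and 12 of 15 lay below 0, beside 65.7%. Vip and Gal were higher in array set 2, and Cartpt and Ret were lower. The sets hold different samples, so array processing and the animals in each set cannot be told apart.

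Vip showed the widest separation, and it was chosen for this after its values were seen. Its levels in array set 1 were 6.35 and 6.72 in WT and 6.43 and 6.42 in the knockout. In array set 2 they were 8.77, 8.46 and 8.43 in WT and 8.36, 8.61 and 9.21 in the knockout. The 6 samples of array set 2 all lay above the 4 of array set 1, by more than any difference within a set. The difference was 2.16 ± 0.17 (SE), or 4.47-fold (adjusted p = 4.65e-06, limma), larger in size than that of 99.9% of measured genes. In array set 1 the Vip probe was near background, at raw intensities of 147.2 to 151.6 and detection p-values of 0.00501 to 0.01629. Its raw intensities in array set 2 were 312.7 to 700.4. The size of the fold therefore depends on the processing, and without 1 sample the difference was 2.04 to 2.27. For Gal, array set 1 spanned 7.38 to 9.17 and array set 2 spanned 9.58 to 10.49, again without overlap, a difference of 1.65 ± 0.28 or 3.15-fold (adjusted p = 0.000748). Over 18 alternatives the Vip difference lay between 1.54 and 2.38 and the Gal difference between 1.41 and 1.90, and each passed 5% in all 18.

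Cartpt was lower in array set 2, with a difference of -0.77 ± 0.22 (SE, adjusted p = 0.0289, limma) and Ret by -0.55 ± 0.18 (adjusted p = 0.0438), against a median of -0.13 for all genes. The second Cartpt probe gave -0.68 ± 0.17 (adjusted p = 0.0137). These calls were less firm: without Ileum_WT_641 they were -0.56 (adjusted p = 0.0767) and -0.44 (0.104), and under median scaling -0.51 (0.209) and -0.29 (0.459). Over 18 alternatives Cartpt passed 5% in 12 and Ret in 6. The 6 measured pan-neuronal members differed between the sets by -0.51 to 0.31, and 0 of them passed 5%. The second Calb2 probe was lower in array set 2, at -0.49 ± 0.15 (adjusted p = 0.0325), whereas the brighter one differed by -0.03 ± 0.18.

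**Figure D3:**
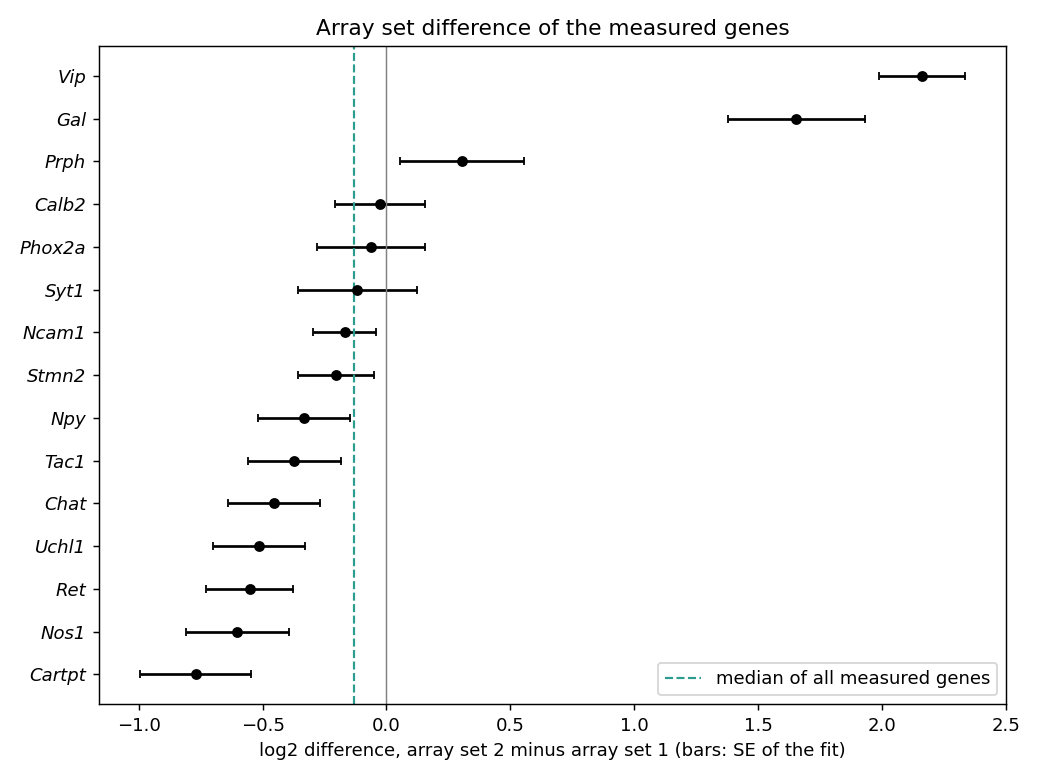
Log2 difference between the array sets (set 2 minus set 1, x axis) for each measured member, with bars of 1 SE and a dashed line at the median of all measured genes (-0.13). Vip and Gal stand to the right at 2.16 and 1.65, and the other 13 members lie between -0.77 and 0.31.

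Other peptide genes, from a list of 29 further neuropeptide and transmitter genes of which 12 were measured, also differed between the array sets. Nts, the neurotensin gene, was higher in array set 2 by 1.81 ± 0.26 (SE, adjusted p = 0.00025, limma), Sst, the somatostatin gene, by 1.67 ± 0.14 (adjusted p = 5.82e-06), Nmu, the neuromedin U gene, by 0.99 ± 0.15 (0.00035) and Slc17a6, a vesicular glutamate transporter gene, by 0.65 ± 0.17 (0.018). These were 4 of the 12, beside 18.4% of all genes, against which the counts of the other lists are also to be read. Of the same 12, 7 were lower in array set 2, with a median of -0.13, beside 65.7% of all genes and a median of -0.13. Nts and Sst are also made by enteroendocrine cells, and of 15 measured enteroendocrine markers 4 passed 5%, all higher in array set 2: Nts, Sst, Scg3 (1.02 ± 0.17, adjusted p = 0.000645) and Pyy (0.75 ± 0.17, 0.0075). Most of these markers went the other way, with 10 of 15 lower in array set 2 and a median of -0.10. Of 17 measured smooth muscle markers 0 passed 5%, and 12 were lower in array set 2, with a median of -0.13. Of 13 enterocyte markers 3 passed, Cdx2, Cdh1 and Slc15a1. All 13 were higher in array set 2, with a median of 0.34. The part of these cell types in the Vip and Gal differences was not tested. Among 31 genes for receptors of the members' peptides and transmitters and their signalling, 13 measured, 2 passed: Galr2, a galanin receptor gene, was higher in array set 2 by 1.21 ± 0.27 (0.00665) and Chrm2, a muscarinic receptor gene, lower, at -0.64 ± 0.17 (0.0182). Of 21 genes of neuronal structure and synapses 3 passed, Map1b higher and Dpysl3 and Tagln3 lower in array set 2. Of 10 development genes Gfra3 and Ece1 passed, both lower, and of 10 glia and Schwann cell genes Pmp22 (higher) and Gpr37l1 (lower) did. Galr2 was detected on only 5 arrays, and Slc17a6, Scg3, Tagln3 and Gfra3 on 6 each. Genes this close to the detection rule can meet it through the array set where they are higher, so their calls are no separate support.

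By genotype, 0 genes of the other nervous system lists passed 5% (limma). In the neuropeptide and transmitter list 9 of 12 were below 0 with a median of -0.10, and the lowest p-values were those of Ddc, the decarboxylase of amine synthesis (-0.44 ± 0.13, SE), and Pcsk1n, an inhibitor of prohormone cleavage (-0.63 ± 0.21, on 5 WT and 3 knockout arrays above detection). Of 21 measured genes of neuronal structure and synapses 10 were below 0, with a median of 0.04, led by p-value by Vamp1 (-0.19 ± 0.17) and Syn1 (0.19 ± 0.17), both of synaptic vesicles. Of 10 measured genes of enteric nervous system development 2 were below 0, with a median of 0.12, led by Bmp4 (0.45 ± 0.17) and Hoxb5 (0.47 ± 0.21). Of the 13 genes of receptors and their signalling 10 were below 0, with a median of -0.14, led by Vipr1, a receptor for vasoactive intestinal peptide (-0.46 ± 0.19), and Prkg1, the kinase downstream of nitric oxide (-0.38 ± 0.16). The median over all genes was -0.00116. Which cells of the ileum gave the signal of these list genes was not tested.

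Glia and Schwann cell genes beyond the members were measured for 10 of 20 listed. Fabp7, Cdh19, Sox2, Foxd3, Gjc3, Col28a1, Egfl8 and Ncan failed the detection rule. The measured ones, such as Entpd2 and Slc1a3, are known from other cells of the gut too. By genotype 4 of 10 were below 0, with a median of 0.03, and the lowest p-values were those of Kcna1, a potassium channel gene (-0.41 ± 0.15, SE, adjusted p = 0.345, limma), and Entpd2, an ectonucleotidase gene (-0.19 ± 0.13, adjusted p = 0.583). Kcna1 was detected on 5 WT and 2 knockout arrays, so the WT arrays alone met the detection rule for it.

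The members and smooth muscle, the layer in which many ganglia lie, shared their highest and lowest samples. The mean over the 15 measured members was highest in Ileum_WT_641 (7.66) and lowest in Ileum_WT_644 (6.97), and spanned 6.97 to 7.66 in WT and 7.003 to 7.36 in the knockout. The mean over 17 of 20 smooth muscle markers was likewise highest in Ileum_WT_641 (11.83) and lowest in Ileum_WT_644 (10.89), and spanned 10.89 to 11.83 in WT and 11.39 to 11.69 in the knockout. The mean over 13 of 17 enterocyte markers was highest in Ileum_WT_644 (12.70) and was 11.98 in Ileum_WT_641, the lowest of the WT samples. The mean over all measured genes had the same highest and lowest samples, within a narrower span of 8.61 to 8.64. Beyond these samples the orders parted: Ileum_IFNgKO_647 had the next highest muscle mean (11.69) but ranked 6 of 10 for the members. Smooth muscle markers had median genotype differences of -0.18 and 0.39 within sets 1 and 2, the members -0.49 and 0.08. The part of these markers in the members' differences was not tested.

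**Figure D4:**
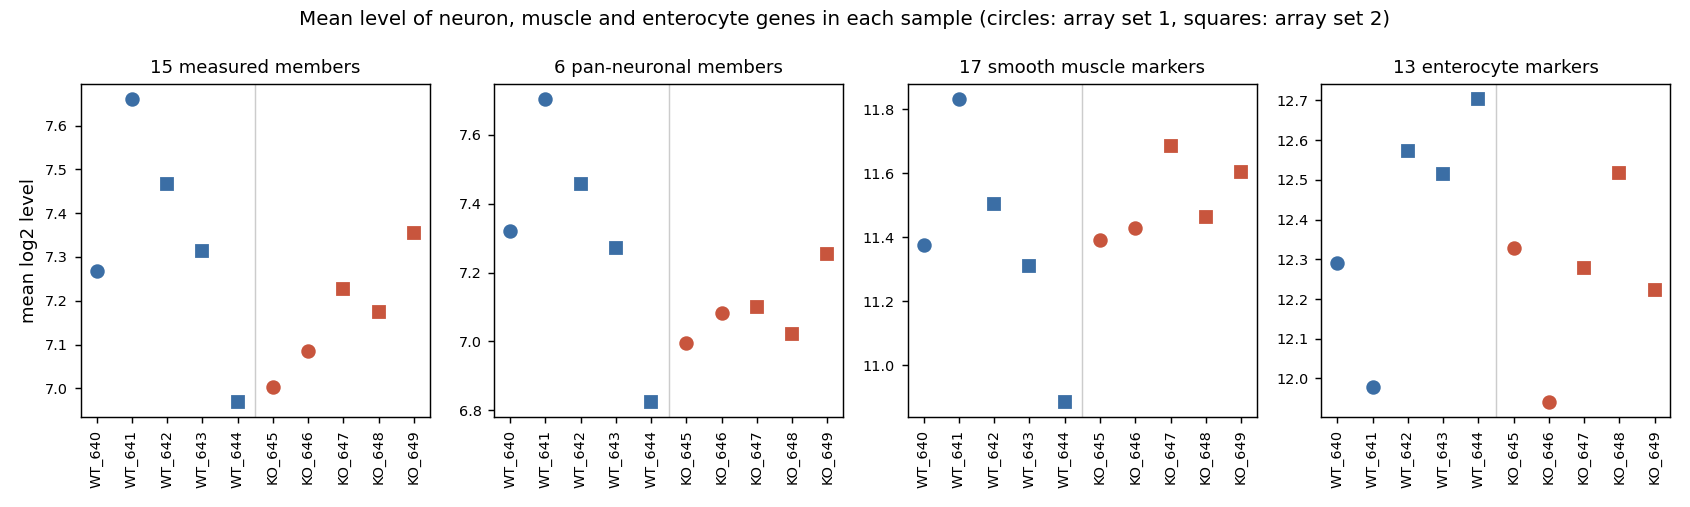
Mean log2 level per sample of the measured members, the pan-neuronal members, smooth muscle markers and enterocyte markers (blue WT, red knockout, circles array set 1, squares array set 2). Ileum_WT_641 is highest and Ileum_WT_644 lowest for the members and for smooth muscle.

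Other cell types of the tissue were followed through their own markers. Enteroendocrine markers (15 of 20 measured) had a median genotype difference of 0.01 and a mean level of 7.92 to 8.37 in WT and 8.11 to 8.43 in the knockout; Gcg, the proglucagon gene, differed by 1.06 ± 0.24 (SE, adjusted p = 0.209, limma) and Gip by -0.38 ± 0.16. Interstitial cells of Cajal could not be judged, since Kit had no matching symbol, Ano1 and Etv1 failed the detection rule, and only Gja1 (0.36 ± 0.17) and Prkcq (0.05 ± 0.20) were measured of 8. Endothelial and mesothelial markers (8 of 13) had a median of -0.15, led by Kdr (-0.50 ± 0.19) and Tie1 (-0.21 ± 0.14). Enterocyte markers had a median of -0.08, led by Cdx2 (-0.41 ± 0.14) and Apoa4 (-1.21 ± 0.47), and smooth muscle markers one of 0.13, led by Cald1 (-0.54 ± 0.21) and Tagln (0.46 ± 0.23). Pancreas and fat markers (5 of 17) had a median of 0.34, led by Ctrb1 (-0.28 ± 0.18) and Adipoq (0.78 ± 0.77), and lymphoid follicle markers (3 of 12) one of 0.49, led by Pou2af1 (0.66 ± 0.23) and Cd79b (0.49 ± 0.20). The follicle median is the value of Cd79b, which was detected on 3 WT and 5 knockout arrays. The third follicle marker, Ccr7, differed the other way, by -0.15 ± 0.13, and was detected on 5 arrays. By genotype, no gene of these lists passed 5%.

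The spread of the members limits what 5 samples a group can show. The residual SD within genotype and array set had a median of 0.33 over the 15 measured members, against 0.25 over all measured genes. Ncam1 had the smallest of the members (0.15) and Gal, Prph and Syt1 the largest (0.46, 0.45 and 0.45).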

How the data were processed

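RNA of 10 ileum samples was read on Illumina mouse bead arrays, 1 per sample. The deposited non-normalised table holds, per the file headers, a linear intensity and a detection p-value per probe and array; its values show no background subtraction. The authors' deposited value table holds linear intensities, quantile normalised between arrays as read from the values. Per the submitters' processing notes the tool lumi was used, in a role they leave unstated. The number of arrays limits the precision.

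Intensities were background corrected by normexp with controls inferred from detection p-values, with an offset of 16, and quantile normalised (neqc, limma 3.58.1, R 4.3.3). Of 25697 probes 12039 were measured, 674 of them unnamed. Gene symbols came from the platform table, with 8 symbols updated through a mouse RefSeq table of GRCm38.p6. Knockout and WT were compared with limma (lmFit, eBayes) in a model of genotype plus array set, and by 4 group means for each set and for the change between sets. P-values were adjusted by Benjamini-Hochberg over all measured probes at 5%. The comparison of array sets is the array set term of the same model.

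All 29 members are named. Values in every sample are given for the 6 with the lowest p for genotype, the 3 with the lowest p for the change between sets and the member with the highest mean in each role, plus Vip. Of each other list the 2 genes with the lowest p are named. The members and lists were chosen with earlier results of these data known. Alternatives changed the background correction, normalisation, value table, filter on dim probes, array set term, array weights, variance model and probe summary, and left out each sample in turn. The fit was tested on simulated data. No sample was left out of the comparisons.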

Additional observations from a re-analysis of the deposited data

Results flagged for a closer look

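Syt1 in Ileum_WT_644 lay far from the other WT samples, at a log2 level of 5.56 against 6.71 for the nearest, a gap of 0.796 of the range of the 5 samples, above the critical value of 0.71 for 5 values. It was 1 of 30 sample groups examined (15 members in 2 genotypes), and chance sets apart about 1 group in 20. The same sample had the lowest mean level of the 15 measured members (6.97) and of smooth muscle markers (10.89).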

How the results depend on the processing

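No member passed 5% for genotype, in either array set or for the change between sets, under any alternative run. The median genotype difference of the members was -0.16; it was -0.07 without background subtraction, -0.06 under median scaling and -0.07 in the authors' deposited values, and -0.30 to -0.05 without 1 sample. For array set 1 it was -0.49, with -0.29, -0.25 and -0.28 under the same 3 settings and -0.71 to -0.25 without 1 sample. For array set 2 it was 0.08, with 0.17 under median scaling, -0.016 for the mean of probes and -0.11 to 0.22 without 1 sample. The 4 members with an unadjusted p under 0.05 for genotype became 1 under median scaling and 3 to 5 elsewhere. In array set 1 the 4 became 1 under median scaling or array weights and 6 without the filter. Without the filter, members that failed the detection rule could be counted too. In array set 2 the 3 became 5 under array weights. For the change between sets the 3 became 1 under median scaling or array weights. The 4 calls between array sets became 2 under median scaling and without the filter on dim probes, and 2 to 4 without 1 sample; the cause was not tested. Median scaling moved the genotype median of all genes from -0.00116 to 0.18. In array set 1 that median moved from -0.02 to 0.18, and in array set 2 from 0.003 to 0.17. The median between array sets moved from -0.13 to 0.03. Member values and counts under median scaling are to be read against these shifts. Median scaling turned the differences of Calb2 (0.14), of Vip (0.066), Stmn2 (0.013) and Phox2a (0.13) in array set 1, and of Gal (0.11), Syt1 (0.085) and Ret (0.083) in array set 2. Array weights turned Prph (0.032) and Calb2 (0.013), and Tac1 (-0.066) and Phox2a (0.21) in array set 1. Averaging probes turned Cartpt (-0.025) and, in array set 2, Calb2 (-0.037). Leaving out 1 sample turned some small differences, with ranges over both sets of -0.19 to 0.085 for Calb2, -0.094 to 0.25 for Cartpt, -0.067 to 0.24 for Phox2a, -0.30 to 0.12 for Prph, -0.10 to 0.088 for Stmn2 and -0.088 to 0.14 for Vip. In array set 1 they were -0.74 to 0.093 for Calb2, -0.28 to 0.32 for Nos1, -0.41 to 0.40 for Phox2a, -0.25 to 0.57 for Tac1 and -0.30 to 0.074 for Vip. In array set 2 they were -0.072 to 0.22 for Calb2, -0.075 to 0.25 for Chat, -0.36 to 0.18 for Gal, -0.12 to 0.37 for Phox2a, -0.094 to 0.52 for Prph, -0.33 to 0.077 for Ret, -0.45 to 0.27 for Syt1 and -0.068 to 0.36 for Vip. Signal over background limits the 12 members that failed the detection rule. No paired analysis was possible because no replicate number is shared by the 2 genotypes.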
